A study of Homo sapiens with 36 samples.

Results

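The genes described here are 10 membrane transporters that move zinc or cadmium across cell membranes: SLC30A1, SLC30A5, SLC30A6, SLC30A7 and SLC30A9 of the zinc efflux (ZnT) family, SLC39A6, SLC39A8, SLC39A10 and SLC39A14 of the zinc import (ZIP) family, and the divalent metal importer SLC11A2. A probe set was assigned to a gene where the platform annotation named that gene alone, and each gene was represented by the brightest probe set, judged by its mean across the 36 arrays. The 10 genes are 10 of 11092 genes that passed the filter on low values, a log2 value above 4 on at least 3 arrays, among 19775 genes on the platform. They had 36 probe sets, of which 27 passed the filter. Of the other genes of both families on the array, 9 of 15 passed it.

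Arrays were made from HK-2 cells, a human renal proximal tubule epithelial line made immortal, which were near confluent when exposed. There were 12 groups of 3 arrays in 2 sets of 18, each set with vehicle groups of its own. One set held CdCl and Di at 12 h and 48 h with the vehicle at the same times, and the other held vehicle, low dose Kbr and high dose Kbr at 24 h and 48 h. The agents are named as the labels name them. The sources used here give neither the doses nor the vehicle. The labels call the replicates biological and do not say what separates them, so p-values measure the spread between these arrays. Values are log2 expression after GCRMA, made by the authors, and a difference of 1 on this scale is a doubling. CdCl and Di were set against the same vehicle arrays, and so were both Kbr doses, so the comparisons within a set are not independent.

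Arrays correlated at 0.982 to 0.995 within a group and at 0.891 to 0.993 between groups. Of 11 proximal tubule markers, CDH6, SLC3A1 and PAX8 were detected, while CUBN, LRP2, ANPEP, GGT1, AQP1, SLC34A1 and SLC5A2 lay below the filter in all groups. The 4 epithelial markers were detected, against 0 of 4 endothelial and 0 of 5 leukocyte markers. Of 5 fibroblast markers COL1A1 and DCN were detected, and COL1A2, PDGFRA and PDGFRB were not. Group means ran from 9.85 to 12.17 for DCN and from 5.25 to 8.62 for COL1A1, so DCN dominates a sum of their linear levels. The log2 of that sum per array in the Kbr set at 48 h was 11.9 in vehicle, 9.91 to 10.4 at low dose and 9.79 to 10.1 at high dose. At 24 h it was 11.9 to 12.4 in vehicle, 11.2 to 11.6 at low dose and 10.9 to 11.3 at high dose. It was also lower with Di at 48 h (10.2 to 10.3, against 11.1 to 11.2 in vehicle). The same measure for the 3 proximal tubule markers is weighted to the brighter ones. At 48 h it was 10.9 on the CdCl arrays and 10.4 to 10.6 with Di, against 11.9 to 12.2 in vehicle. In the Kbr set at 48 h it was 12.8 to 13.3 in vehicle, 11.9 to 12.2 at low dose and 11.7 at high dose. These 3 markers did not move together. At 48 h their single differences from vehicle ran from -2.25 to 0.35 with CdCl and from -3.54 to 0.37 with Di. With Kbr at 48 h they ran from -1.92 to 0.18 at low dose and from -2.90 to 0.23 at high dose. The part of both sums in the results below was not tested. All arrays came from the same cell line, and in bulk samples a change in part of the cells and a change in all of them cannot be told apart.

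Zinc enters the cytosol through ZIP proteins and leaves it through ZnT proteins, either out of the cell or into organelles, so the balance of both families sets the zinc that enzymes and transcription factors can draw on. Cadmium has no carrier of its own in animal cells and travels on carriers of zinc, manganese and iron, chiefly SLC39A8, SLC39A14 and SLC11A2. The proximal tubule is the part of the kidney where cadmium collects. Free zinc, or zinc that cadmium displaces from proteins, is sensed by the transcription factor MTF1, which binds metal response elements and switches on the metallothioneins, small metal-binding proteins, and the zinc exporter SLC30A1.

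The promoters of SLC30A1 and of the metallothionein MT1X are shown because both genes are known MTF1 targets. They are the 250 bases before the annotated start of each gene in RefSeq (GRCh38.p14), 5′ to 3′ on the gene's strand. Capitals mark the core of the metal response element, TGCACNC or TGCGCNC on either strand. The SLC30A1 stretch is chr1:211579162-211579411, minus strand, and the MT1X stretch is chr16:56682220-56682469, plus strand.
SLC30A1 promoter: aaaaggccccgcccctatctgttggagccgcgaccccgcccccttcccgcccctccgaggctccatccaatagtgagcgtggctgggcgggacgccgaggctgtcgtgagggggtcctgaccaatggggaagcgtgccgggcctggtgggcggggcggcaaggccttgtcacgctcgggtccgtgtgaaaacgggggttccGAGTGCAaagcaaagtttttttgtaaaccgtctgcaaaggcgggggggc
MT1X promoter: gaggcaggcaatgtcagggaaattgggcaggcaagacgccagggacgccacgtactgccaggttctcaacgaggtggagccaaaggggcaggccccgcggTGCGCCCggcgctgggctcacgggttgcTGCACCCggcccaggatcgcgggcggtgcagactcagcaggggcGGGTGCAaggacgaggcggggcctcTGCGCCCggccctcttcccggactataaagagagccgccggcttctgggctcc
The SLC30A1 stretch held 1 such core, 49 bases before the start, and a further core lay 25 bases after the start, outside the stretch shown. The MT1X stretch held 4. In the same 250 bases before the start, 24.8% of 35116 promoters in the table held at least 1 core and 0.37% at least 4. Over the table's whole window, which runs on to 50 bases after the start, SLC30A1 held 2 cores, where 8.6% of promoters held at least 2 and 29.6% at least 1. Promoters were listed for 9 of the 10 transporters, 15 promoters in all, some genes having several. Of these 15 promoters 5 held a core (33.3%), near the 29.6% of all promoters, and they belonged to 5 genes. A match describes letters in a window and does not show binding.

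Across the 8 comparisons of a treated group with its own vehicle, the 10 transporters gave 80 values, of which 21 rose, 14 fell and 45 did not pass (limma over all 11092 genes, adjusted p under 0.05). With CdCl at 12 h 3 of 10 rose and 0 fell, where by the same test 13.4% of all genes were higher and 30.5% lower, as in each such share below. With CdCl at 48 h 4 rose and 1 fell, where 20.7% of all genes were higher and 22.0% lower. With Di at 48 h 3 rose and 3 fell, where 19.1% of all genes were higher and 23.9% lower. With Di at 12 h 0 of 10 passed, where 1.67% of all genes were higher and 4.60% lower. There 1 transporter, SLC30A9, had an unadjusted p under 0.05 (0.0395), and 0 or 1 passed under the other processing choices tried.

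Low dose Kbr at 24 h gave 1 rise and 1 fall among the 10, where 6.93% of all genes were higher and 8.28% lower. Low dose at 48 h gave 4 rises and 3 falls, where 23.8% of all genes were higher and 23.2% lower. High dose Kbr gave 2 rises and 2 falls at 24 h, where 15.4% of all genes were higher and 25.3% lower, and 4 rises and 4 falls at 48 h, where 27.3% of all genes were higher and 34.5% lower. The replicate numbers of the Kbr set pair its arrays, and with the number as a block the count at low dose and 24 h was 4, with 3 rises and 1 fall. Counts over 10 genes are small beside these shares, and nothing about the 10 genes as a group is read from them. The median difference of the 10 genes lay between -0.13 (high dose Kbr, 48 h) and 0.12 (CdCl, 48 h). The median of all genes lay between -0.16 (CdCl, 12 h) and 0.00 (low dose Kbr, 48 h).

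**Figure D1:**
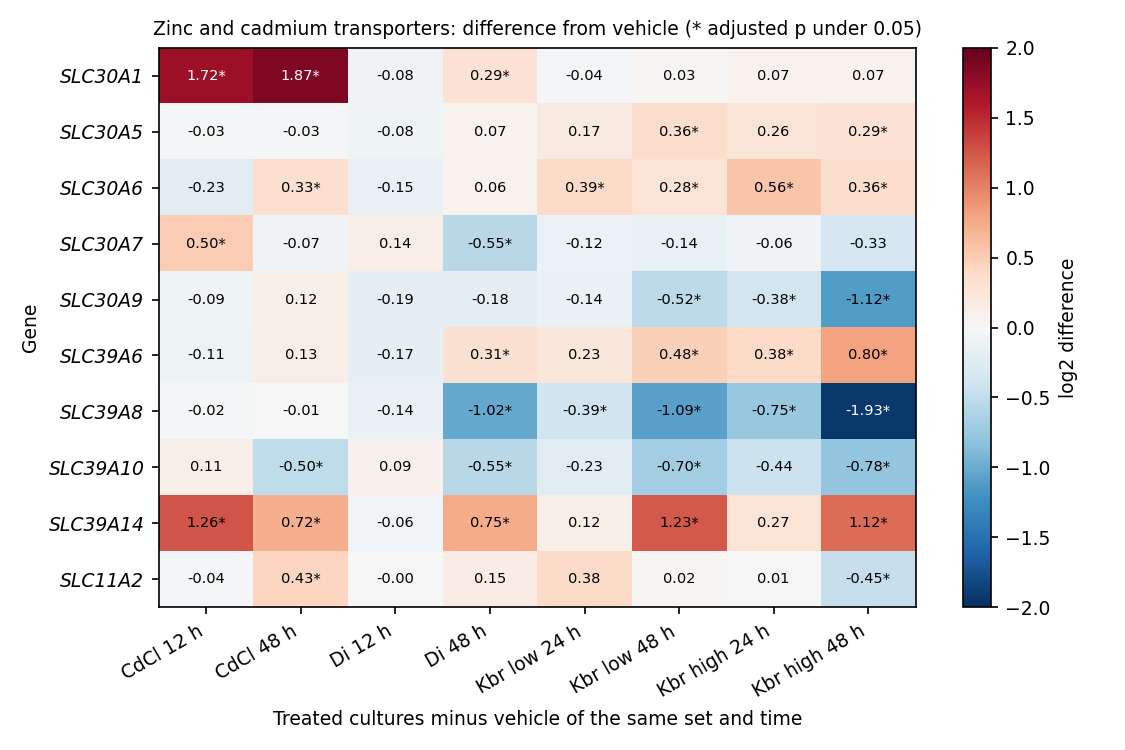
Log2 difference from the vehicle of the same set and time for the 10 transporters (rows) in the 8 treated groups (columns), with an asterisk where the adjusted p was under 0.05. SLC30A1 is high in both CdCl columns, SLC39A14 is high in 5 columns including both CdCl columns, and SLC39A8 is low with Di at 48 h and in the 4 Kbr columns.

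SLC30A1, the zinc exporter of the plasma membrane (chr1:211571568-211579161), was higher with CdCl at both times, by a factor of more than 3. After 12 h its log2 value was 13.83, 13.89 and 14.01 with CdCl and 12.15, 11.99 and 12.21 with Di, against 12.14, 12.24 and 12.20 in vehicle. After 48 h it was 14.43, 14.38 and 14.54 with CdCl and 12.88, 12.84 and 12.90 with Di, against 12.55, 12.69 and 12.51 in vehicle. Every CdCl array stood at least 1 log2 unit above every vehicle array of its time, the Di arrays at 12 h overlapped with vehicle, and the Di arrays at 48 h lay just above it. The CdCl difference was 1.72 ± 0.08 (SE) at 12 h, 3.29-fold, with limma adjusted p = 8.56e-16. At 48 h it was 1.87 ± 0.08, 3.65-fold (adjusted p = 1.54e-16). Di at 48 h gave a rise of 0.29 ± 0.08, 1.22-fold (adjusted p = 0.00553), and at 12 h a difference of -0.08 ± 0.08 (adjusted p = 0.643).

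In the Kbr set SLC30A1 at 24 h measured 11.88, 11.94 and 11.78 in vehicle, 11.88, 11.75 and 11.85 at low dose and 12.01, 11.89 and 11.92 at high dose. After 48 h its values were 12.33, 12.17 and 12.09 in vehicle, 12.14, 12.25 and 12.27 at low dose and 12.32, 12.35 and 12.13 at high dose. The doses overlapped with vehicle at both times, and the 4 Kbr differences lay between -0.04 and 0.07, none passing the test (adjusted p from 0.458 to 0.829). A dimmer probe set of the gene, 228181_at, gave larger differences with CdCl (2.13 ± 0.18 and 2.56 ± 0.18) and rises with Kbr that the brighter one did not show, by 1.08 ± 0.18 at low dose and 1.15 ± 0.18 at high dose after 48 h (adjusted p = 1.95e-05 and 3.13e-06). Over the 12 groups the order of SLC30A1 means was CdCl at 48 h (14.45), CdCl at 12 h (13.91), Di at 48 h (12.87) and the vehicle of that set at 48 h (12.58), each separate from the next. The other 8 groups followed between 12.27 and 11.83, with arrays of neighbouring groups overlapping.

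**Figure D2:**
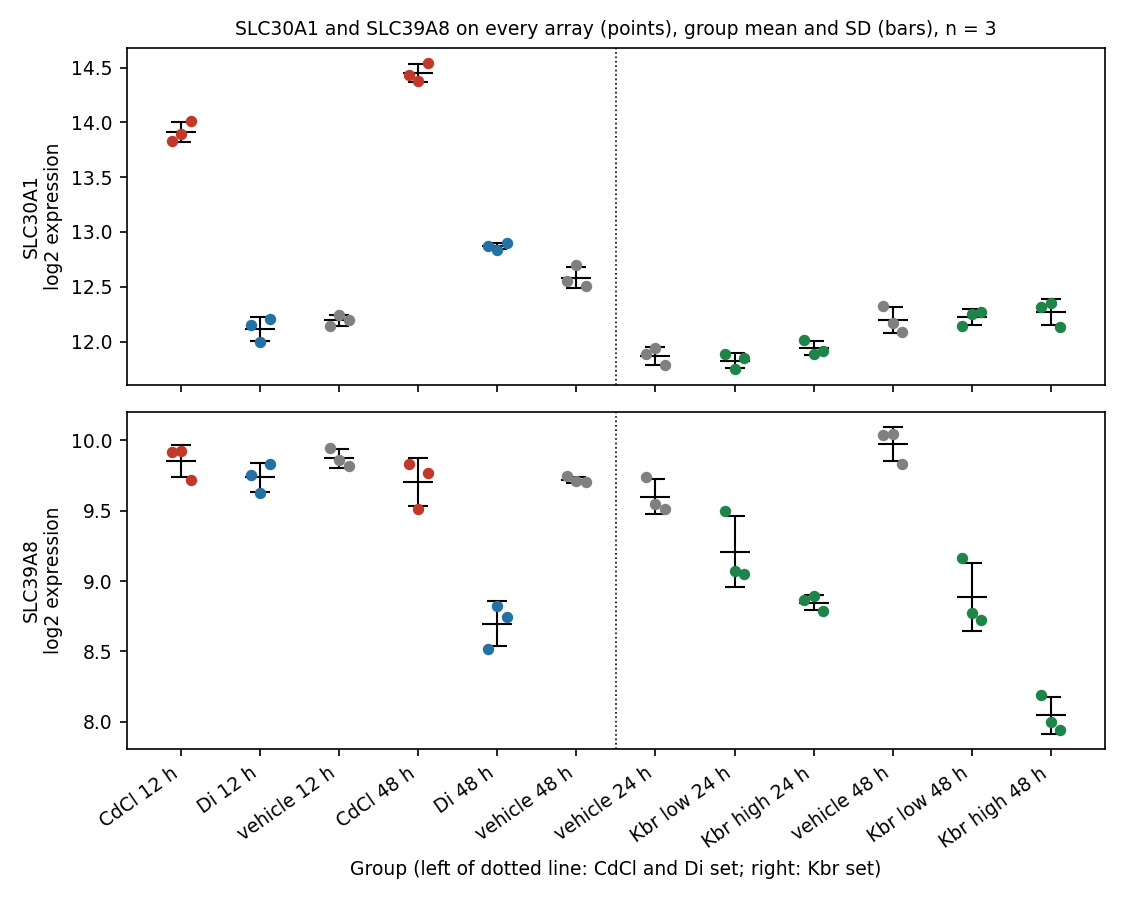
Log2 value of the zinc exporter SLC30A1 and of the metal importer SLC39A8 on every array, with group means and SD (3 arrays a group); the left part of each panel is the CdCl and Di set and the right part the Kbr set. SLC30A1 lies above 13.8 on the 6 CdCl arrays and below 13 on all others, and SLC39A8 lies lowest on the high dose Kbr arrays at 48 h (7.94 to 8.19).

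SLC30A5 and SLC30A6 form a pair that carries zinc into the early secretory pathway, and SLC30A7 does the same work in the Golgi. SLC30A5 (chr5:69094014-69131069) rose with Kbr at 48 h. Its mean there was 9.75 ± 0.02 in vehicle, 10.10 ± 0.20 at low dose and 10.03 ± 0.19 at high dose (SD, n = 3 each). The rise was 0.36 ± 0.11 (SE) at low dose (limma adjusted p = 0.00803) and 0.29 ± 0.11 at high dose (adjusted p = 0.0236). The low dose call was lost without replicate 1 of the low dose (adjusted p = 0.0836), and the high dose call without vehicle replicate 2 (0.0554) or high dose replicate 1 (0.185). At 24 h the high dose difference of 0.26 ± 0.11 did not pass (adjusted p = 0.0532), while with the replicate block its adjusted p was 0.0150. It also passed under some other choices, such as median centring (0.00249) and the mean of the kept probe sets (0.00470). It passed too on 1555334_s_at, 232432_s_at and 243166_at (0.0432, 0.0260 and 0.0201). The high dose call at 48 h was also lost with quantile normalization (0.0574), the compared groups alone (0.101) or the set alone (0.0571). The low dose call at 48 h was lost with the compared groups alone (0.0721). On the brightest probe set CdCl and Di gave no call. The other probe sets of SLC30A5 differ at 48 h: 220181_x_at fell by 0.39 with CdCl (adjusted p = 0.00933) and gave 0.04 and 0.10 with low and high dose Kbr (0.826 and 0.475). On 243166_at the Kbr differences at 48 h were 0.43 and 0.50 and did not pass either (adjusted p = 0.201 and 0.120), and 232432_s_at passed at low dose and not at high dose (0.33 and 0.20, adjusted p = 0.00626 and 0.0730).

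SLC30A6 (chr2:32165864-32224379) rose in the 4 Kbr comparisons and with CdCl at 48 h on its brightest probe set. At 24 h its mean was 8.46 ± 0.16 in vehicle, 8.84 ± 0.20 at low dose and 9.01 ± 0.07 at high dose (SD, n = 3 each). Every treated array there stood above every vehicle array. The differences were 0.39 ± 0.11 (SE) at low dose (limma adjusted p = 0.0214) and 0.56 ± 0.11 at high dose (adjusted p = 0.000301). At 48 h they were 0.28 ± 0.11 (adjusted p = 0.0472) and 0.36 ± 0.11 (adjusted p = 0.00814). The low dose calls are fragile: at 24 h leaving out 1 of 4 arrays gave adjusted p of 0.0527 to 0.146, and at 48 h leaving out any 1 of the 6 gave 0.0576 to 0.138. With CdCl at 48 h SLC30A6 averaged 8.67 ± 0.08, against 8.35 ± 0.17 in vehicle, a rise of 0.33 ± 0.11 (adjusted p = 0.0211) that was lost without vehicle replicate 1 (0.150) or without CdCl replicate 1 or 2 (0.0680 and 0.0625). The gene's other kept probe set, 243643_x_at, gave 0.12 there (0.524), and the mean of both gave 0.23 (0.0812). That probe set also rose with Di at 48 h, by 0.53 (adjusted p = 0.00357). With Kbr it gave 0.41 at low dose and 24 h, which did not pass (0.0507), and rises of 0.62 at low dose and 48 h, 0.55 at high dose and 24 h and 0.76 at high dose and 48 h (0.000849, 0.00313 and 4.32e-05).

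SLC30A7 (chr1:100896090-100996078) moved in opposite directions with CdCl early and Di late. With CdCl at 12 h it averaged 9.80 ± 0.22, against 9.30 ± 0.01 in vehicle, a rise of 0.50 ± 0.17 (limma adjusted p = 0.0165) that was lost without CdCl replicate 2 (0.0974). With Di at 48 h it averaged 9.89 ± 0.15, against 10.43 ± 0.12 in vehicle, a fall of 0.55 ± 0.17 (adjusted p = 0.00896) that was lost without Di replicate 1 (0.0508). The groups did not overlap in either comparison. High dose Kbr at 48 h gave -0.33 ± 0.17 (adjusted p = 0.0870, and 0.0180 with the replicate block). The probe set 239596_at of the same gene gave 1.83 with CdCl at 12 h, 1.78 with Di at 12 h and 0.53 with high dose Kbr at 48 h, all passing, so the gene's direction with Kbr differs between probe sets. On 226601_at the Di difference at 48 h was -0.33 and did not pass (adjusted p = 0.179).

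SLC30A9 (chr4:41990530-42090461), a zinc exporter of mitochondria, fell with Kbr in a graded way on its brightest probe set. At 24 h its log2 value was 10.26, 10.07 and 10.19 in vehicle, 10.11, 10.03 and 9.96 at low dose and 9.75, 9.81 and 9.82 at high dose. At 48 h it was 10.35, 10.53 and 10.32 in vehicle, 9.97, 9.86 and 9.81 at low dose and 9.39, 9.31 and 9.14 at high dose. At 48 h the 3 groups were separate, and at 24 h the high dose lay below the other two, which overlapped. The difference from vehicle at high dose was -0.38 ± 0.09 at 24 h (limma adjusted p = 0.000949) and -1.12 ± 0.09 at 48 h, 2.17-fold lower (adjusted p = 1.13e-11). At low dose it was -0.14 ± 0.09, which did not pass, at 24 h and -0.52 ± 0.09 (adjusted p = 1.83e-05) at 48 h.

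In the other set SLC30A9 measured 9.99, 10.07 and 9.89 with CdCl and 9.86, 9.75 and 10.05 with Di at 12 h, against 10.07, 10.13 and 10.02 in vehicle. After 48 h its values were 10.52, 10.34 and 10.50 with CdCl and 10.10, 10.12 and 10.24 with Di, against 10.38, 10.35 and 10.28 in vehicle. None of these 4 differences passed, although all 3 Di arrays at 48 h lay below all vehicle arrays (-0.18 ± 0.09, adjusted p = 0.0917). The fall with Kbr depends on the probe set. The dimmer 229500_at rose instead, by 0.89 at low dose and by 1.07 at high dose after 48 h (adjusted p = 0.00132 and 0.000101), and the mean of both probe sets differed by 0.19 and -0.02, neither passing (adjusted p = 0.258 and 0.888). A direction for the SLC30A9 transcript as a whole is therefore not given by these arrays.

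SLC39A8 (ZIP8, chr4:102251041-102345482), an importer of zinc and manganese that also carries cadmium, did not pass with CdCl, and on its brightest probe set it fell in the 4 Kbr comparisons and with Di at 48 h. At 12 h its log2 value was 9.92, 9.92 and 9.72 with CdCl and 9.75, 9.62 and 9.83 with Di, against 9.95, 9.86 and 9.82 in vehicle. At 48 h it was 9.84, 9.51 and 9.77 with CdCl and 8.52, 8.83 and 8.75 with Di, against 9.75, 9.71 and 9.70 in vehicle. The CdCl arrays lay on both sides of the vehicle arrays at 48 h, whereas the 3 Di arrays lay well below them. The CdCl differences were -0.02 ± 0.12 at 12 h and -0.01 ± 0.12 at 48 h (limma adjusted p = 0.916 and 0.946). The Di difference was -0.14 ± 0.12 at 12 h (adjusted p = 0.557) and -1.02 ± 0.12 at 48 h, 2.03-fold lower (adjusted p = 7.45e-08).

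With Kbr at 24 h SLC39A8 measured 9.74, 9.55 and 9.51 in vehicle, 9.50, 9.07 and 9.05 at low dose and 8.86, 8.89 and 8.78 at high dose. After 48 h its values were 10.04, 10.04 and 9.83 in vehicle, 9.16, 8.78 and 8.72 at low dose and 8.19, 8.00 and 7.94 at high dose. The 3 dose levels did not overlap at either time, with the closest arrays at 24 h 9.51 in vehicle and 9.50 at low dose. Relative to vehicle, low dose gave -0.39 ± 0.12 at 24 h (limma adjusted p = 0.0280) and -1.09 ± 0.12 at 48 h, 2.12-fold lower (adjusted p = 5.49e-08). High dose gave -0.75 ± 0.12 at 24 h, 1.69-fold lower (adjusted p = 1.72e-05), and -1.93 ± 0.12 at 48 h, 3.81-fold lower (adjusted p = 2.47e-13). The low dose call at 24 h was lost when 1 of 4 arrays was left out (adjusted p from 0.0502 to 0.154). The gene's other kept probe set, 219869_s_at, gave falls of 1.08 with Di at 48 h and 2.21 with high dose Kbr at 48 h (adjusted p = 7.00e-07 and 7.19e-13). It also fell by 0.94 at low dose and 48 h and by 0.75 at high dose and 24 h (7.08e-06 and 0.000192), but low dose at 24 h gave -0.30 and did not pass (0.177). High dose Kbr at 48 h had the lowest mean of the 12 groups (8.04), separate from Di at 48 h (8.70).

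SLC39A14 (ZIP14, chr8:22367278-22434129), an importer of zinc, manganese and iron that also carries cadmium, rose with CdCl at both times and with Di and both Kbr doses at 48 h. At 12 h its log2 value was 11.55, 11.60 and 11.75 with CdCl and 10.31, 10.33 and 10.31 with Di, against 10.37, 10.24 and 10.53 in vehicle. At 48 h it was 12.74, 12.57 and 12.73 with CdCl and 12.66, 12.68 and 12.77 with Di, against 11.91, 12.02 and 11.94 in vehicle. CdCl arrays stood above all vehicle arrays at both times, while Di arrays did so at 48 h and overlapped with vehicle at 12 h. The CdCl difference was 1.26 ± 0.21 at 12 h, 2.39-fold (limma adjusted p = 2.82e-05), and 0.72 ± 0.21 at 48 h, 1.65-fold (adjusted p = 0.00747). The Di difference was -0.06 ± 0.21 at 12 h (adjusted p = 0.914) and 0.75 ± 0.21 at 48 h, 1.68-fold (adjusted p = 0.00567).

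With Kbr at 24 h SLC39A14 measured 10.15, 10.34 and 10.49 in vehicle, 10.31, 10.34 and 10.67 at low dose and 10.55, 10.62 and 10.64 at high dose. After 48 h its values were 10.16, 10.34 and 10.33 in vehicle, 12.04, 11.69 and 10.80 at low dose and 11.88, 11.58 and 10.73 at high dose. At 48 h all 6 treated arrays lay above the vehicle arrays, with replicate 3 of both doses well below replicates 1 and 2, and the doses overlapped with each other. Low dose gave 1.23 ± 0.21, 2.35-fold (limma adjusted p = 3.22e-05), and high dose 1.12 ± 0.21, 2.18-fold (adjusted p = 5.02e-05). Without replicate 3 of every Kbr group, a choice made after seeing the data, the rises were 1.61 and 1.48 (adjusted p = 1.59e-09 and 1.18e-09). At 24 h neither dose passed (0.12 and 0.27, adjusted p = 0.792 and 0.328), and without replicate 3 the high dose did (0.34, adjusted p = 0.0330). A dimmer probe set, 1555434_a_at, rose by 3.35 with CdCl at 12 h (adjusted p = 3.00e-09), by 1.13 with CdCl and 1.22 with Di at 48 h, and by 1.36 and 1.29 with low and high dose Kbr at 48 h. It also rose by 1.16 with Di at 12 h (adjusted p = 0.0288), where the brightest probe set did not pass.

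**Figure D3:**
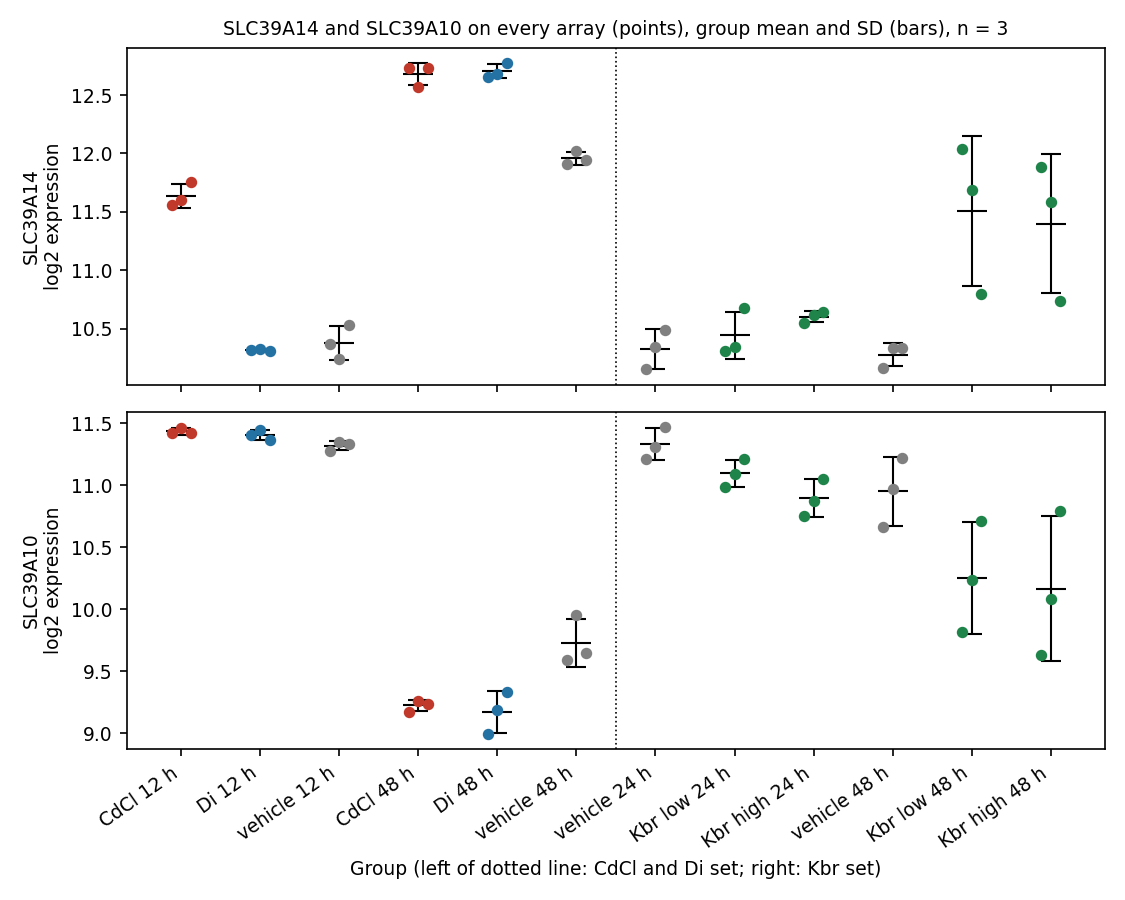
Log2 value of the importers SLC39A14 and SLC39A10 on every array, with group means and SD (3 arrays a group); the left part of each panel is the CdCl and Di set and the right part the Kbr set. SLC39A14 reaches 12.57 to 12.77 with CdCl and Di at 48 h, and in the Kbr set at 48 h replicate 3 of both doses lies well below replicates 1 and 2. For SLC39A10 replicate 1 is lowest and replicate 3 highest in each Kbr group, vehicle included.

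SLC39A6 and SLC39A10 are related zinc importers of the plasma membrane, and they moved in opposite directions. SLC39A6 (chr18:36108531-36129340) at 48 h averaged 11.51 ± 0.07 in vehicle, 11.99 ± 0.15 at low dose Kbr and 12.31 ± 0.13 at high dose Kbr (SD, n = 3 each). The rise was 0.48 ± 0.10 (SE) at low dose (limma adjusted p = 0.000345) and 0.80 ± 0.10 at high dose, 1.74-fold (adjusted p = 1.18e-07). At 24 h high dose gave a rise of 0.38 ± 0.10 (adjusted p = 0.00394), and low dose gave 0.23 ± 0.10 (adjusted p = 0.127, and 0.0220 with the replicate block). With Di at 48 h SLC39A6 averaged 12.33 ± 0.03, against 12.02 ± 0.10 in vehicle, a rise of 0.31 ± 0.10 (adjusted p = 0.0152) that was lost without vehicle replicate 2 (0.0710). CdCl gave no call on this probe set, while 1556551_s_at of the gene gave 1.03 with CdCl at 12 h (adjusted p = 0.000362). With CdCl at 48 h SLC39A6 rose by 0.46 on 1555460_a_at (0.0347), by 0.37 on 202089_s_at (0.0272) and by 0.37 in the mean of its probe sets (0.0261). The Kbr calls at high dose and 24 h and at low dose and 48 h were lost on 1556551_s_at (0.39 and 0.47, adjusted p = 0.156 and 0.0784).

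SLC39A10 (chr2:195613029-195737700), with 1 kept probe set, was lower in the 4 treated groups at 48 h. Its values at 48 h were 9.17 to 9.26 with CdCl and 9.00 to 9.33 with Di, against 9.59 to 9.95 in vehicle. In the Kbr set at 48 h it measured 10.66, 10.97 and 11.22 in vehicle, 9.82, 10.23 and 10.72 at low dose and 9.63, 10.08 and 10.79 at high dose, in order of replicate. The CdCl and Di arrays lay below their vehicle, and the Kbr groups overlapped with theirs, with replicate 1 lowest and replicate 3 highest in each Kbr group. Within each Kbr replicate number, which pairs the arrays, both doses at 48 h lay below vehicle. The falls were 0.50 ± 0.20 with CdCl and 0.55 ± 0.20 with Di (limma adjusted p = 0.0400 and 0.0236). Both calls were weak: the CdCl call was lost without any 1 of 5 arrays (adjusted p from 0.0553 to 0.168), and the Di call without vehicle replicate 2 (0.115) or Di replicate 1 (0.0994). The Kbr falls at 48 h were 0.70 ± 0.20 at low dose and 0.78 ± 0.20 at high dose (adjusted p = 0.00478 and 0.00106). In this fit, which does not use the pairing, the low dose call was lost without low dose replicate 1 (0.0608). At 24 h high dose gave -0.44 ± 0.20 (adjusted p = 0.0772, and 0.00570 with the replicate block).

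SLC11A2 (DMT1, chr12:50952263-51028886), a proton-coupled iron importer that also carries cadmium, rose with CdCl and fell with high dose Kbr at 48 h. With CdCl at 48 h it averaged 9.29 ± 0.13, against 8.86 ± 0.04 in vehicle, a rise of 0.43 ± 0.13 (SE; limma adjusted p = 0.0102) that was lost without CdCl replicate 3 (0.0612). With Kbr at 48 h it averaged 7.92 ± 0.18 in vehicle, 7.95 ± 0.05 at low dose and 7.47 ± 0.28 at high dose. The high dose fall was 0.45 ± 0.13 (adjusted p = 0.00417), lost without high dose replicate 3 (0.0595). At 24 h the low dose difference was 0.38 ± 0.13 (adjusted p = 0.0540, and 0.0440 with the replicate block). The probe sets of SLC11A2 differ: at 48 h CdCl gave 0.50 on 203123_s_at and 0.62 on 203125_x_at but -0.41 on 210047_at (adjusted p = 0.000388), while high dose Kbr gave -0.56 and -0.46 on the first pair.

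CdCl against Di compares agents at matched times, with arrays of the same set. At 12 h 2 of 10 transporters were higher with CdCl and 0 lower, where 13.6% of all genes were higher and 22.1% lower. They were SLC30A1, by 1.79 ± 0.08, 3.47-fold (limma adjusted p = 4.51e-16), and SLC39A14, by 1.32 ± 0.21 (adjusted p = 1.99e-05). At 48 h 4 were higher with CdCl and 0 lower, where 20.5% of all genes were higher and 17.1% lower. They were SLC30A1 by 1.58 ± 0.08, 2.99-fold (adjusted p = 8.02e-15), SLC39A8 by 1.01 ± 0.12 (2.12e-07), SLC30A7 by 0.48 ± 0.17 (0.0257) and SLC30A9 by 0.30 ± 0.09 (0.00693). SLC39A14 differed between the agents by -0.02 ± 0.21 at 48 h (adjusted p = 0.954).

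High against low dose Kbr gave 0 of 10 calls at 24 h, where 0.685% of all genes were higher and 3.71% lower. There limma gave 3 transporters an unadjusted p under 0.05, and 0 or 1 passed under the other choices. With the replicate block the 1 call was SLC39A8, at -0.36 (adjusted p = 0.0183, against 0.0901 without the block). At 48 h 1 transporter was higher and 3 lower at high dose, where 6.46% of all genes were higher and 17.3% lower. The median of all genes in this comparison was -0.06, and centring the arrays moved it by 0.11, so the differences are given relative to it. SLC39A8 lay at -0.78, SLC30A9 at -0.54 and SLC11A2 at -0.42, and SLC39A6 at 0.39 (adjusted p = 1.01e-05, 9.69e-06, 0.00901 and 0.0214 for the unshifted differences of -0.84, -0.60, -0.48 and 0.32). The SLC30A9 value is that of its brightest probe set. On 229500_at the gene rose against vehicle at 48 h, by 0.89 at low dose and 1.07 at high dose.

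The change of each difference between the early and the late time was tested directly. For CdCl 1 of 10 transporters passed, where 16.4% of all genes were higher and 7.78% lower: SLC30A6 differed from vehicle by 0.33 at 48 h and -0.23 at 12 h, a change of 0.56 ± 0.16 (limma adjusted p = 0.0127). The difference at 12 h did not pass by itself (adjusted p = 0.104), and the median of all genes there was -0.16. The median change over all genes was 0.12, and after median centring the SLC30A6 change was 0.50 (adjusted p = 0.0248). At 48 h its probe set 243643_x_at gave 0.12 and did not pass (0.524). The CdCl difference of SLC30A1 was of like size at both times (1.87 at 48 h and 1.72 at 12 h). For Di 3 changes were positive and 2 negative, where 15.1% of all genes were higher and 13.9% lower. SLC39A14 changed by 0.81 ± 0.30 (adjusted p = 0.0461), SLC39A6 by 0.48 ± 0.14 (0.0125), SLC30A1 by 0.36 ± 0.12 (0.0190), SLC30A7 by -0.69 ± 0.24 (0.0298) and SLC39A8 by -0.89 ± 0.17 (0.000239).

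For low dose Kbr 1 change was positive and 1 negative, where 2.54% of all genes were higher and 1.80% lower. They were SLC39A14 at 1.12 ± 0.30 (limma adjusted p = 0.0343) and SLC39A8 at -0.69 ± 0.17 (0.0223), and with the replicate block SLC30A9 passed too (-0.38, adjusted p = 0.0390, against 0.0696 without it). For high dose Kbr 1 was positive and 2 negative, where 6.89% of all genes were higher and 8.10% lower. They were SLC39A6 at 0.42 ± 0.14 (adjusted p = 0.0467), SLC30A9 at -0.74 ± 0.12 (0.000172) and SLC39A8 at -1.17 ± 0.17 (4.93e-05). The SLC30A9 change is that of its brightest probe set. On 229500_at the gene differed from vehicle at high dose by 0.21 at 24 h and 1.07 at 48 h. The high dose difference of SLC39A14 changed by 0.85 ± 0.30 (adjusted p = 0.0578, and 0.0451 with the replicate block).

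The differences from vehicle at 48 h were also set against each other across the sets, each taken from its own vehicle. The CdCl difference minus the high dose Kbr difference was positive for 4 transporters and negative for 1, where 27.9% of all genes were higher and 22.3% lower. It was 1.91 ± 0.17 for SLC39A8, 1.79 ± 0.12 for SLC30A1, 1.24 ± 0.12 for SLC30A9, 0.88 ± 0.19 for SLC11A2 and -0.67 ± 0.14 for SLC39A6 (limma adjusted p = 6.79e-10, 1.33e-12, 3.48e-09, 0.000304 and 0.000321). The Di difference minus the high dose Kbr difference was positive for 3 and negative for 1, where 23.6% of all genes were higher and 19.9% lower. It was 0.94 ± 0.12 for SLC30A9, 0.90 ± 0.17 for SLC39A8, 0.60 ± 0.19 for SLC11A2 and -0.49 ± 0.14 for SLC39A6 (adjusted p = 5.35e-07, 0.000101, 0.0106 and 0.00665). Other probe sets did not carry all of these: SLC39A6 gave adjusted p of 0.0636 to 0.405 on its other 3 for CdCl minus high dose Kbr, and 229500_at of SLC30A9 gave -1.37 for Di minus high dose Kbr (0.000592). Set and agent differ together here, and the β-actin probe sets, whose 3′ minus 5′ difference marks RNA quality, differed between sets (1.40 to 1.84 in the CdCl and Di set, 0.87 to 1.06 in the Kbr set). Its part in the result was not tested.

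Several transporters also differed between the late and the early vehicle arrays. In the vehicle of the CdCl and Di set 6 were higher and 1 lower at 48 h than at 12 h, where 18.3% of all genes were higher and 27.3% lower. SLC39A14 averaged 11.96 ± 0.06 at 48 h and 10.38 ± 0.15 at 12 h (SD, n = 3 each), a rise of 1.58 ± 0.21 (SE), 2.99-fold (limma adjusted p = 8.65e-07). SLC39A10 averaged 9.73 ± 0.20 at 48 h and 11.32 ± 0.04 at 12 h, a fall of 1.59 ± 0.20, 3.01-fold (adjusted p = 1.95e-07). SLC30A7 rose by 1.14 ± 0.17 (3.19e-06), SLC30A5 by 0.64 ± 0.11 (2.37e-05), SLC11A2 by 0.57 ± 0.13 (0.000822), SLC30A1 by 0.39 ± 0.08 (0.000275) and SLC30A9 by 0.26 ± 0.09 (0.0155).

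In the vehicle of the Kbr set 3 were higher and 0 lower at 48 h than at 24 h, where 5.08% of all genes were higher and 7.16% lower. They were SLC11A2 by 0.70 ± 0.13 (limma adjusted p = 0.00104), SLC39A8 by 0.37 ± 0.12 (0.0427) and SLC30A1 by 0.33 ± 0.08 (0.00937). With the replicate block the count was 5, adding SLC30A7 (0.42, adjusted p = 0.0150, against 0.105) and SLC39A10 (-0.38, adjusted p = 0.0305, against 0.220). SLC39A14 differed by -0.05 between these times and did not pass. The earlier time differs between the sets.

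Of the 35 calls against vehicle, 21 held when any 1 of the compared arrays was left out and 14 were lost without at least 1 array. The calls of SLC30A1 with CdCl and of SLC39A8 with Di and both Kbr doses at 48 h were among those that held. Of the values that did not pass, some did without 1 array: SLC30A6 with CdCl at 12 h without CdCl replicate 2 (limma adjusted p = 0.0426), SLC39A6 with low dose Kbr at 24 h without low dose replicate 2 (0.0420), and SLC30A5 with high dose Kbr at 24 h, SLC11A2 with low dose Kbr at 24 h and SLC30A7 with high dose Kbr at 48 h without either of 2 arrays each (0.0276 to 0.0443). For 31 of the 35 calls the gene had another kept probe set, and in 27 of these all its other probe sets had the same sign. In 3 of the 31 another probe set passed the test in the opposite direction, which were SLC30A9 with low and with high dose Kbr at 48 h and SLC11A2 with CdCl at 48 h.

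**Figure D4:**
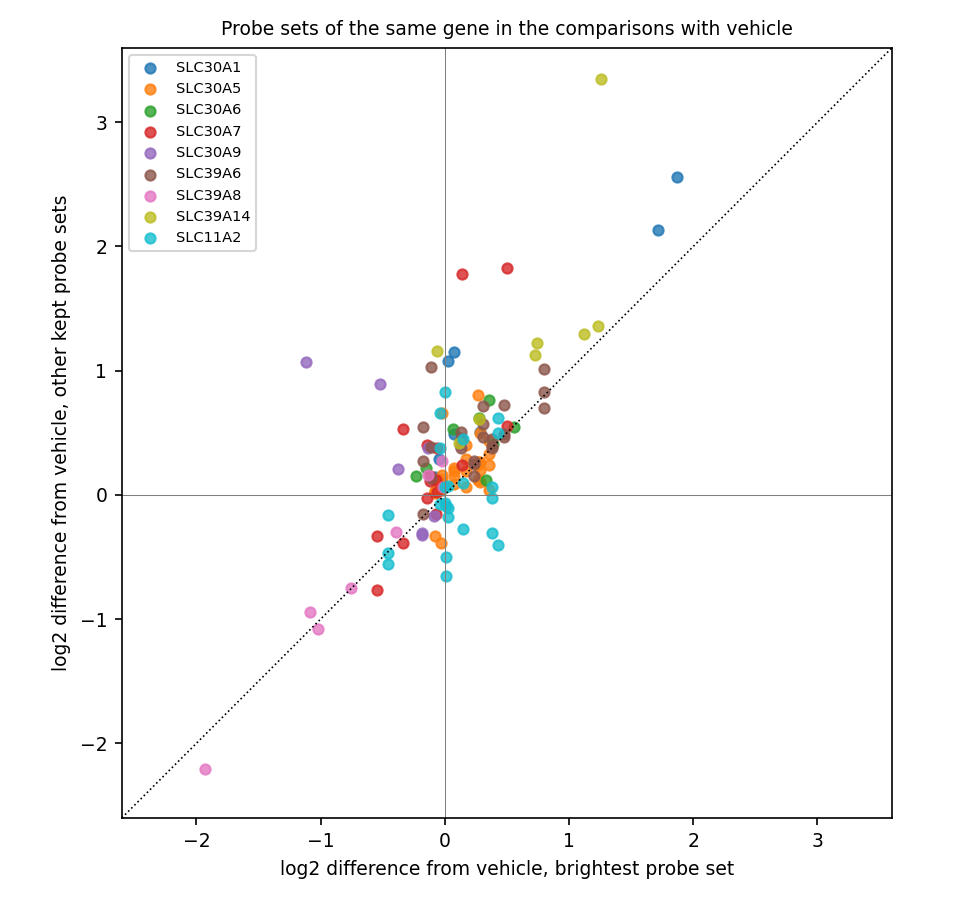
Log2 difference from vehicle of the brightest probe set (horizontal axis) against that of the gene's other kept probe sets (vertical axis) for the 9 transporters with several, in the 8 comparisons with vehicle. Most points have the same sign on both axes, and 229500_at of SLC30A9 has the opposite sign for Kbr.

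The other ZnT and ZIP genes were led by SLC30A2, which loads zinc into vesicles. It rose with CdCl, to a mean of 10.94 at 12 h, against 8.75 in vehicle (2.19 ± 0.24, limma adjusted p = 3.87e-08), and to 11.61 at 48 h, against 9.17 in vehicle (2.44 ± 0.24, adjusted p = 3.17e-09). It fell by 2.08 ± 0.24 with Di at 48 h (adjusted p = 4.68e-08) and by 2.83 ± 0.24 with high dose Kbr at 48 h (adjusted p = 7.46e-11). Of the 9 measured, 1 rose and 1 fell with CdCl at 12 h, where 13.4% of all genes were higher and 30.5% lower. With CdCl at 48 h 4 rose and 0 fell (20.7% and 22.0% of all genes). With Di 0 passed at 12 h (1.67% and 4.60%), and 1 rose and 1 fell at 48 h (19.1% and 23.9%). With low dose Kbr 0 rose and 2 fell at 24 h (6.93% and 8.28%), and 0 rose and 3 fell at 48 h (23.8% and 23.2%). With high dose Kbr 1 rose and 4 fell at 24 h (15.4% and 25.3%), and 1 rose and 5 fell at 48 h (27.3% and 34.5%). Counts over 9 genes are small beside these shares. The median difference of the 9 genes was 0.20 with CdCl, -0.29 with Di and -0.81 with high dose Kbr at 48 h, beside -0.01, -0.01 and -0.06 over all genes. SLC39A13, which moves zinc out of vesicles of the secretory pathway, fell by 0.67 with CdCl at 12 h and by 1.72 and 1.51 with high dose Kbr at 24 h and 48 h. SLC39A4, the zinc importer of the intestine, rose by 0.88 ± 0.21 with CdCl at 48 h and fell by 1.09 ± 0.21 with high dose Kbr at 48 h (adjusted p = 0.00124 and 5.95e-05).

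Of 8 measured genes of the zinc response, the 7 metallothioneins rose with CdCl at both times and fell with Di and with both Kbr doses at 48 h, and the other gene is MTF1. MT1X, whose promoter is printed above, measured 15.15 with CdCl, against 13.26 in vehicle, at 12 h and 15.20 with CdCl, against 12.57 in vehicle, at 48 h. With Di at 48 h it measured 11.23, against 12.57 in vehicle. With Kbr at 48 h it measured 13.16 in vehicle, 12.26 at low dose and 11.47 at high dose. Of the 8 genes 7 rose with CdCl at both times, where 13.4% of all genes were higher at 12 h and 20.7% at 48 h. They were led by MT1M (4.69 ± 0.23 and 6.21 ± 0.23, limma adjusted p = 2.30e-15 and 3.60e-18) and MT1G (3.47 and 4.24). With Di 0 passed at 12 h, where 1.67% of all genes were higher and 4.60% lower. At 48 h with Di 7 fell, where 23.9% of all genes were lower, by 1.36 for MT1F, 1.34 for MT1X and 1.32 for MT1M among others. With low dose Kbr 0 rose and 2 fell at 24 h (6.93% and 8.28% of all genes), and 1 rose and 7 fell at 48 h (23.8% and 23.2%). With high dose Kbr 0 rose and 6 fell at 24 h (15.4% and 25.3%), and 1 rose and 7 fell at 48 h (27.3% and 34.5%). The gene that rose in the Kbr set at 48 h was MTF1 itself, by 0.63 ± 0.15 at low dose and 0.87 ± 0.15 at high dose (adjusted p = 0.00141 and 2.01e-05). The median difference of the 8 genes was 2.40 with CdCl, -1.23 with Di, -0.87 with low dose Kbr and -1.63 with high dose Kbr at 48 h, beside -0.01, -0.01, 0.00 and -0.06 over all genes. Metallothionein probe sets can bind near-identical copies, so the copy named is uncertain. The brightest probe set of SLC30A1, the other MTF1 target printed above, differed by 0.03 at low dose and 0.07 at high dose at that time and did not pass, unlike its probe set 228181_at.

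Among 13 measured transporters of other metals or of metal conjugates, 3 rose and 1 fell with CdCl at 12 h, where 13.4% of all genes were higher and 30.5% lower. With CdCl at 48 h 4 rose and 2 fell (20.7% and 22.0% of all genes). With Di 0 passed at 12 h (1.67% and 4.60%), and 3 rose and 1 fell at 48 h (19.1% and 23.9%). With low dose Kbr 2 rose and 3 fell at 24 h (6.93% and 8.28%), and 3 rose and 4 fell at 48 h (23.8% and 23.2%). With high dose Kbr 3 rose and 3 fell at 24 h (15.4% and 25.3%), and 3 rose and 4 fell at 48 h (27.3% and 34.5%). Nothing about the 13 genes as a group is read from these counts. The median difference of the 13 genes lay between -0.04 and 0.14 in the 8 comparisons. The iron exporter SLC40A1 fell by 2.01 ± 0.29 with CdCl at 48 h (limma adjusted p = 1.81e-06). In the Kbr set at 48 h it measured 7.18 to 7.83 in vehicle, 4.04 to 5.01 at low dose and 3.28 to 3.31 at high dose. The high dose arrays lay below the filter level of 4, so the high dose value is a bound, at least 11.3-fold lower (adjusted p = 1.08e-12).

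The transferrin receptor TFRC, through which iron enters, rose with CdCl and Di at 48 h (0.66 and 0.51) and in the 4 Kbr comparisons, up to 1.40 ± 0.18 with high dose at 48 h (limma adjusted p = 1.24e-07). The copper importer SLC31A1 rose by 0.65 with CdCl, 0.95 with Di and 1.41 with high dose Kbr at 48 h (adjusted p = 9.46e-06, 1.44e-08 and 4.20e-12). ABCC1, which exports glutathione conjugates, rose by 0.69 ± 0.12 with CdCl and 1.44 ± 0.12 with Di at 48 h (adjusted p = 4.04e-05 and 1.15e-10). The magnesium transporter SLC41A1 rose by 1.24 ± 0.16 and the zinc-carrying vesicle protein TMEM163 fell by 2.40 ± 0.18 with high dose Kbr at 48 h (adjusted p = 1.38e-07 and 9.11e-12).

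Likeness between genes was described over the 36 arrays after the vehicle mean of the same set and time had been subtracted. The arrays fall into groups, and treated groups share vehicle means, so the coefficients describe these arrays and carry no test. The genes with a pattern most like that of SLC30A1 were DNER and NR2F1-AS1 (Pearson r of 0.98 each), then IL7R, XDH and RGS4 (0.97 each). Those most like SLC39A14 were DNAJB11 (0.97), then GARS1, RAB5A, CRY1 and HYOU1 (0.93 each). Among the 45 pairs of the 10 transporters, SLC30A9 and SLC39A8 were most alike (0.92) and SLC39A6 and SLC39A8 most opposed (-0.85). SLC30A5 and SLC39A6 followed as the next most alike pair (0.75). All these coefficients use the brightest probe sets. On 229500_at SLC30A9 rose with Kbr at 48 h (0.89 at low dose and 1.07 at high dose), where SLC39A8 fell. Its likeness on that probe set was not computed.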

How the data were processed

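Expression was measured in HK-2 cells on 36 single-colour Affymetrix arrays in 12 groups of 3. Per the labels' protocols, cells were seeded 24 h before treatment, and total RNA was taken up on columns and turned into biotinylated cRNA. Per the submitters' processing notes the authors used GCRMA, a method that models background from probe sequence and brings arrays to a common scale, and the deposited values are its log2 expression. The sources used here do not give its version or settings. The size of a difference is less certain for values near background, and normalization removes part of a change shared by most genes. Values ran from 0.714 to 16.1 and array medians from 2.91 to 3.02. The number of arrays limits the precision.

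Groups, times and replicate numbers came from the sample descriptions. The table held 0 columns of other samples. Of 54675 probe sets, 62 controls were left out and 23599 passed the filter (above 4 on at least 3 arrays). A single gene was annotated to 41097 probe sets, and the 1801 with several genes and the 11777 with none were not used. Matching to the current gene table (GRCh38.p14), which gives the coordinates, changed 0 symbols. The brightest probe set of each gene left 11092 genes. Group means of all 36 arrays were fitted with limma 3.58.1 in R 4.3.3 (lmFit, eBayes), and p-values were adjusted by Benjamini-Hochberg over all genes, with a threshold of 0.05. The fitting code was tested on simulated data.

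Same-numbered arrays of different groups deviated together in the Kbr set (r from 0.218 to 0.701 over 45 pairs, all above 0.1) and not in the CdCl and Di set (r from -0.348 to 0.416, 8 of 45 pairs above 0.1). The Kbr numbers therefore pair its arrays, and a fit with the number as a block is printed where it changes a call.

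The 10 genes, the gene lists and the rule for naming were chosen with earlier results of these data known. The rule gave all 10 genes in every comparison, array values for those that passed with a size of at least 1 against vehicle, and from each list up to the 3 largest passing genes each way in a comparison with vehicle. It also gave the 5 genes most like SLC30A1 and most like the other gene with the widest range of group means. MT1X is followed in all comparisons, within the rule or not, because its promoter is printed. Alternatives were no filter, a filter at 6, median centring, quantile normalization, a variance trend, array weights, the replicate block, the mean of the kept probe sets, each other probe set, the compared groups or the set alone, and each array left out. Leaving out replicate 3 of every Kbr group was added after the data were seen.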

Additional observations from a re-analysis of the deposited data

Results flagged for a closer look

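Differences from vehicle that themselves differed between 2 times or 2 agents, by a limma test of that difference (adjusted p under 0.05), are listed here with their size on the log2 scale. No explanation was tested. Between 48 h and 12 h the CdCl difference of SLC30A6 changed by 0.56, where the median change over all genes was 0.12. Its difference at 12 h had not passed, and its other kept probe set gave no call at 48 h. Over the same times the Di difference changed by 0.81 for SLC39A14, 0.48 for SLC39A6, 0.36 for SLC30A1, -0.69 for SLC30A7 and -0.89 for SLC39A8. Between 48 h and 24 h the low dose Kbr difference changed by 1.12 for SLC39A14 and -0.69 for SLC39A8, and the high dose Kbr difference by 0.42 for SLC39A6, -0.74 for SLC30A9 and -1.17 for SLC39A8. At 48 h the CdCl difference minus the high dose Kbr difference was 1.91 for SLC39A8, 1.79 for SLC30A1, 1.24 for SLC30A9, 0.88 for SLC11A2 and -0.67 for SLC39A6. The Di difference minus the high dose Kbr difference was 0.94 for SLC30A9, 0.90 for SLC39A8, 0.60 for SLC11A2 and -0.49 for SLC39A6. With high dose Kbr the values of SLC30A9 rest on a probe set whose neighbour 229500_at moved the other way (1.07 at 48 h). The values of SLC11A2 are not carried by its probe set 210047_at. At 48 h that probe set gave -0.41 with CdCl, -0.28 with Di and -0.16 with high dose Kbr. Groups of 3 arrays are too small for a test of single outlying arrays.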

How the results depend on the processing

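Of 1456 recomputed differences from vehicle, 1321 stayed on their side of the threshold, 71 lost the call, 49 gained one and 15 had the other sign with a call in at least 1 of the fits. Of the 1321, 90 also had the other sign, with no call in either fit. Of 365 recomputed counts, 311 stayed within 1.5 times and 54 did not. The cause of these changes was not tested. The 15 came from the choice of probe set. The mean of the kept probe sets gave 0.36 for SLC39A6 with CdCl at 12 h, 0.19 for SLC30A9 with low dose Kbr at 48 h and -0.31 for SLC11A2 with high dose Kbr at 24 h. With CdCl and Di, 203125_x_at of SLC11A2 gave 0.66 and 0.83 at 12 h, 210047_at of SLC11A2 gave -0.41 and -0.28 at 48 h, 1556551_s_at of SLC39A6 gave 1.03 with CdCl at 12 h, and 1555434_a_at of SLC39A14 gave 1.16 with Di at 12 h. With Kbr, 229500_at of SLC30A9 gave 0.89 at low dose and 48 h and 0.21 and 1.07 at high dose and 24 h and 48 h. At high dose 239596_at of SLC30A7 gave 0.53 at 48 h, and 203123_s_at and 203125_x_at of SLC11A2 gave -0.50 and -0.65 at 24 h.

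Counts of the 10 genes that moved were as follows. Without a filter 3 passed for the change of the Di difference and 1 for that of low dose Kbr. Median centring gave 2 and array weights 5 for the change of the CdCl difference. The mean of the probe sets gave 1 for Di at 12 h, 1 and 2 for high against low dose Kbr at 24 h and 48 h, and 2, 2, 1 and 1 for the changes of the CdCl, Di, low dose and high dose Kbr differences. The replicate block gave 4 for low dose Kbr at 24 h, 1 for high against low dose at 24 h, 3 for the change of the CdCl difference and 5 for the Kbr vehicle over time. Arrays of the CdCl and Di set share only a number. There the block added SLC30A7 in CdCl against Di at 12 h and in the change of the CdCl difference (limma adjusted p = 0.0163 and 0.0114), SLC39A6 in CdCl against Di at 48 h (0.0458) and SLC39A10 in the changes of the CdCl and Di differences (0.00874 and 0.00592). It also added SLC30A5 in CdCl minus high dose Kbr (0.0325), and it changed no call other than these and those printed beside their results. The compared groups alone gave 0, 4 and 5 for low dose at 24 h, low dose at 48 h and high dose at 48 h, 2 for high against low dose at 48 h, 5 and 0 for the changes of the CdCl and low dose Kbr differences and 0 for the Kbr vehicle over time. The arrays of the set alone gave 5, 1 and 0 for the change of the CdCl difference, low dose at 24 h and the change of the low dose difference. Without replicate 3 of every Kbr group, chosen after seeing the data, 1 passed for low dose at 24 h and 1 and 2 for high against low dose at 24 h and 48 h.

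With 1 array left out in turn, counts ran from 3 to 4 for CdCl at 48 h, 0 to 3 and 4 to 6 for low dose at 24 h and 48 h, 2 to 4 for high against low dose at 48 h, 3 to 4 and 0 to 2 for the changes of the Di and low dose Kbr differences, 5 to 8 for CdCl minus high dose Kbr and 1 to 3 for the Kbr vehicle over time. Over all genes, centring moved the share of rises among calls to 41.4% of calls with CdCl at 12 h, against 30.5% as deposited, to 44.9% against 26.6% with Di at 12 h, and to 49.3% against 37.9% with high dose Kbr at 24 h. For high against low dose it moved to 37.4% against 15.6% at 24 h and 51.0% against 27.1% at 48 h, and for the changes of the CdCl and low dose Kbr differences to 56.8% against 67.9% and 45.1% against 58.5%. Centring ended the calls of SLC39A10 with CdCl and Di at 48 h (adjusted p = 0.0681 and 0.0621 by limma) and of SLC30A6 with low dose Kbr at 48 h (0.0774). Signal over background limits SLC40A1 at high dose, and 3 arrays a group limit the small differences.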
